A study of Mus musculus with 48 samples.

Results

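The immediate early genes described here are Egr1, Fos, Jun, Junb, Ier2, Ier3, Atf3, Btg2, Zfp36 and Dusp1, measured in mouse kidney across genotype, diet and sex. They were taken by symbol, so no measured value chose them. The 10 genes had 12 probe sets among the 45137 probe sets on both chips that are not controls. All 12 were 430A probe sets and 0 were from 430B, with 2 each for Jun and Btg2 and 1 for each other gene.

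RNA from the kidneys of 72 mice was combined into 24 pools of 3 mice, and each pool was hybridised to both Affymetrix chips, giving 48 arrays. The 8 groups of 3 pools were Hyp males on a low phosphate diet, Hyp males on the control diet, Hyp females on each of those diets, and normal males and normal females on each of them. Hyp is a germline mutation of Phex, a gene of the X chromosome, that causes hypophosphatemia. Hyp males were hemizygous (Hyp/Y), Hyp females were heterozygous (Hyp/+), and the normal mice were their littermates. All mice were 10 weeks old at the start, drank deionized water and ate a Teklad diet, low phosphate or control, for 3 days. The label of 1 array names C57BL/6J mice, and the other labels give no strain. Because each replicate is a pool, the spread between replicates is that of pools and not of single animals.

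Immediate early genes are switched on within minutes of a stimulus, without new protein synthesis, mostly by the ERK and stress kinases acting on factors such as SRF, ELK1 and CREB that already sit on their promoters. Their mRNAs decay quickly, so a tissue level reflects the last hour or so, including the handling of the animal and the removal of the organ. In the kidney they respond to growth factors, hormones, osmotic stress and injury. The interval between death and extraction is not given in the sources used here.

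Of the 10 genes, 8 passed a filter that asked for at least 3 of 24 arrays with a signal above the median of the array. Fos and Atf3 exceeded the array median on 0 of 24 arrays, so their tests come from a limma fit without the filter. Fos ran between 17.4 and 187 signal units (median 96.3) and Atf3 between 7.7 and 111 (median 42.1), while array medians lay between 165 and 211. The other probe sets exceeded the array median on at least 20 of 24 arrays. Junb, the lowest of them by this count, had a signal of 32.8 in 1 pool of normal females on the control diet.

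The deposited signal intensities are linear values already scaled on 100 probe sets that both chips share. Differences below are log2 differences ± standard error from limma, with p-values adjusted by the Benjamini-Hochberg method over 18633 features. Adjustment was over 28285 features in the fit without the filter, and over 28026 where every kept probe set was tested. A gene is said to rise or fall only where its adjusted p was under 0.05. Of 8 kidney tubule markers, 8 passed the filter. Among them Slc34a1, the sodium phosphate cotransporter of the proximal tubule, averaged 13137 ± 2018 in Hyp pools and 16136 ± 1819 in normal pools (SD, n = 12 each). Tubule markers did not go one way with genotype: of the 8, 2 rose (Slc12a3 and Slc4a1) and 2 fell (Slc5a2 and Slc34a1) in Hyp pools. Over all features 1.96% were called for genotype. In such whole tissue RNA, fewer cells of a type and less RNA per cell cannot be told apart.

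The sequences just upstream of 4 of these genes are shown because they carry the DNA motifs by which immediate early genes are commonly described. They are the 250 bases before the gene start, 5′ to 3′ on the gene's strand, from RefSeq on build GRCm38.p6, and capitals mark the motif matches. The Ier3 window is chr17:35821463-35821712 on the plus strand, and its capitals are a match to the NF-kB site. The Btg2 window is chr1:134079156-134079405 on the minus strand, and its capitals are the cAMP response element TGACGTCA. The Dusp1 window is chr17:26508473-26508722 on the minus strand, with TGACGTCA and the shorter core TGACG. The Fos window is chr12:85473640-85473889 on the plus strand, with an NF-kB site match, 2 TGACG cores and TATAAA.
Ier3: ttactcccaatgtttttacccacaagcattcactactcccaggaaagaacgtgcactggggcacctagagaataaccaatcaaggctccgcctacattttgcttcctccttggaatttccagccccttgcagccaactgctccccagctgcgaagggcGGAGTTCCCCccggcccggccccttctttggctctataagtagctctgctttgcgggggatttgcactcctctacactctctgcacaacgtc
Btg2: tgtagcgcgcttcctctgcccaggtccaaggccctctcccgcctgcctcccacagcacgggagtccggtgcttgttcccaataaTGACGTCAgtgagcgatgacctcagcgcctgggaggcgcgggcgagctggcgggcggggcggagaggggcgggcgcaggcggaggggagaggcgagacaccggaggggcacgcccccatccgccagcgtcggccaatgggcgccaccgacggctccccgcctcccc
Dusp1: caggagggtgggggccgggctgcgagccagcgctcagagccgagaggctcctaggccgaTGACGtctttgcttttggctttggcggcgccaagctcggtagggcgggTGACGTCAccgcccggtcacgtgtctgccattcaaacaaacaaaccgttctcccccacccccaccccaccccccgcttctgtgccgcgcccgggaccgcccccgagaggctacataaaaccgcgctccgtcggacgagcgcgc
Fos: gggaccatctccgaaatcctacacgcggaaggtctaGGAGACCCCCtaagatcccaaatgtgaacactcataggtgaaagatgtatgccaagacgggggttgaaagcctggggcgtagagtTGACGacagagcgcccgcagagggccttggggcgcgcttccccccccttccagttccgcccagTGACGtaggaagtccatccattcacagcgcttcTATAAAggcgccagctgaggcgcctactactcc

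Promoter windows were found for 8 of the 10 genes, all but Egr1 and Ier2, and each motif was searched on both strands of these and of 32851 windows in all. TGACGTCA, to which CREB and ATF proteins bind, stood in 2 of 8 members and in 1.55% of all windows. TGACG, which lies inside TGACGTCA, stood in 5 of 8 members (Btg2, Atf3, Junb, Fos and Dusp1) and in 17.8% of all windows. The NF-kB site stood in 2 of 8 and in 7.25%, TATAAA in 1 of 8 and in 12.4%, and the CArG box, to which SRF binds, in 1 of 8 (Zfp36) and in 1.47%. Sites farther upstream than the 250 bases of a window were not searched, so a gene without a match may carry one there. The AP-1 site TGANTCA stood in 0 of 8 and in 6.75%, and the Egr1 site GCGTGGGCG in 0 of 8 and in 0.54%. The member windows held from 54.4% GC (Ier3) to 73.2% (Btg2), against a median of 52.4% over all windows. The part of GC content in these shares was not tested. A match is a description of the letters, and no factor was measured on this DNA.

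The first comparison asked how the genes differ in Hyp kidneys. Ier3 and Ier2 rose in Hyp pools, 2 of the 8 genes that passed the filter, and 0 fell. Among all features 1.05% were called higher in Hyp. The median of the 8 was 0.05 on the log2 scale, against -0.003 over all features.

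Ier3 encodes a short-lived protein that modulates cell survival and ERK signalling. In Hyp males on low phosphate its signal was 1023, 1198 and 1474, and in Hyp males on the control diet 1671, 1804 and 1941. In Hyp females it was 2104, 2210 and 2379 on low phosphate and 2286, 2346 and 2704 on the control diet. In normal males it was 523.7, 826.6 and 897.4 on low phosphate and 814.8, 886.9 and 999.8 on the control diet, and in normal females 1059, 1483 and 1653 on low phosphate and 1476, 1548 and 1579 on the control diet. Every Hyp pool of a sex thus lay above every normal pool of that sex, on either diet.

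Over all pools Ier3 was 1.71-fold higher in Hyp than in normal pools (0.78 ± 0.09, 95% interval 0.59 to 0.97, adjusted p = 1.77e-05). It was the called member in each subset: 0.87 ± 0.13 in males (adjusted p = 5.22e-04), 0.68 ± 0.13 in females (0.0099), 0.84 ± 0.13 on the control diet (0.00107) and 0.72 ± 0.13 on low phosphate (0.00503). In these subsets 1 of 8 members was called higher, against 0.794% of all features in males, 0.284% in females, 0.413% on the control diet and 0.478% on low phosphate. The share of all calls that were higher on the control diet was 62.1%, and 76.2% when arrays were scaled to a common median. In females it was 41.4% and 53.4% with that scaling.

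Ordered by group mean, Ier3 ran from Hyp females on control diet (2445 ± 226, SD, n = 3 here and in the other groups) and Hyp females on low phosphate (2231 ± 139) to Hyp males on control diet (1805 ± 135), normal females on control diet (1534 ± 53), normal females on low phosphate (1398 ± 306), Hyp males on low phosphate (1232 ± 227), normal males on control diet (900.5 ± 93.3) and normal males on low phosphate (749 ± 199). Neighbours in this order overlapped in their pools within Hyp females, within normal females, between normal females and Hyp males on low phosphate, and within normal males. The steps to Hyp males on control diet, to normal females on control diet and to normal males on control diet had no overlap.

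Ier2, a nuclear protein of the immediate early response, had a signal of 261 at the lowest, 344 at the median and 399 at the highest in Hyp pools, against 168, 274 and 331 in normal pools. The groups overlapped. The difference was 0.33 ± 0.08 (1.25-fold, adjusted p = 0.0319). It was similar in size on low phosphate (0.33 ± 0.11, adjusted p = 0.26) and on the control diet (0.32 ± 0.11, 0.34), and was 0.42 ± 0.11 in males (0.0897) and 0.24 ± 0.11 in females (0.531). The Ier2 call did not hold without the filter on dim probe sets (adjusted p = 0.0746), nor without any 1 of 11 of the 24 pools, where its difference was 0.30 to 0.33 and its adjusted p at most 0.0657.

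The AP-1 and related transcription factors did not pass the test for genotype. Egr1, a zinc finger factor, ran from 222 to 523 (median 288) in Hyp pools and from 161 to 501 (median 344) in normal pools, with a difference of -0.04 ± 0.14 (adjusted p = 0.965). Jun gave -0.08 ± 0.11 (0.894), and Junb, a Jun relative that often opposes it, gave -0.07 ± 0.25 (0.967). Fos, the partner of Jun in AP-1, gave 0.23 ± 0.28 (0.914), and Atf3, a stress-induced ATF factor, gave -0.18 ± 0.38 (0.961), both from the fit without the filter. The intervals of the dim genes were wide, from -0.36 to 0.82 for Fos and from -0.98 to 0.63 for Atf3.

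The members that restrain the response did not pass either. Zfp36, which binds AU-rich elements and speeds the decay of cytokine mRNAs, gave 0.12 ± 0.13 (adjusted p = 0.852). Dusp1, a phosphatase that switches off p38, JNK and ERK, gave 0.08 ± 0.10 (0.876). Btg2, an antiproliferative protein that recruits the deadenylase complex, gave 0.01 ± 0.10 (0.988), with a second probe set at 0.07 ± 0.07 (0.838, every kept probe set tested). The pools of Hyp and normal mice overlapped for all 3 genes.

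**Figure D1:**
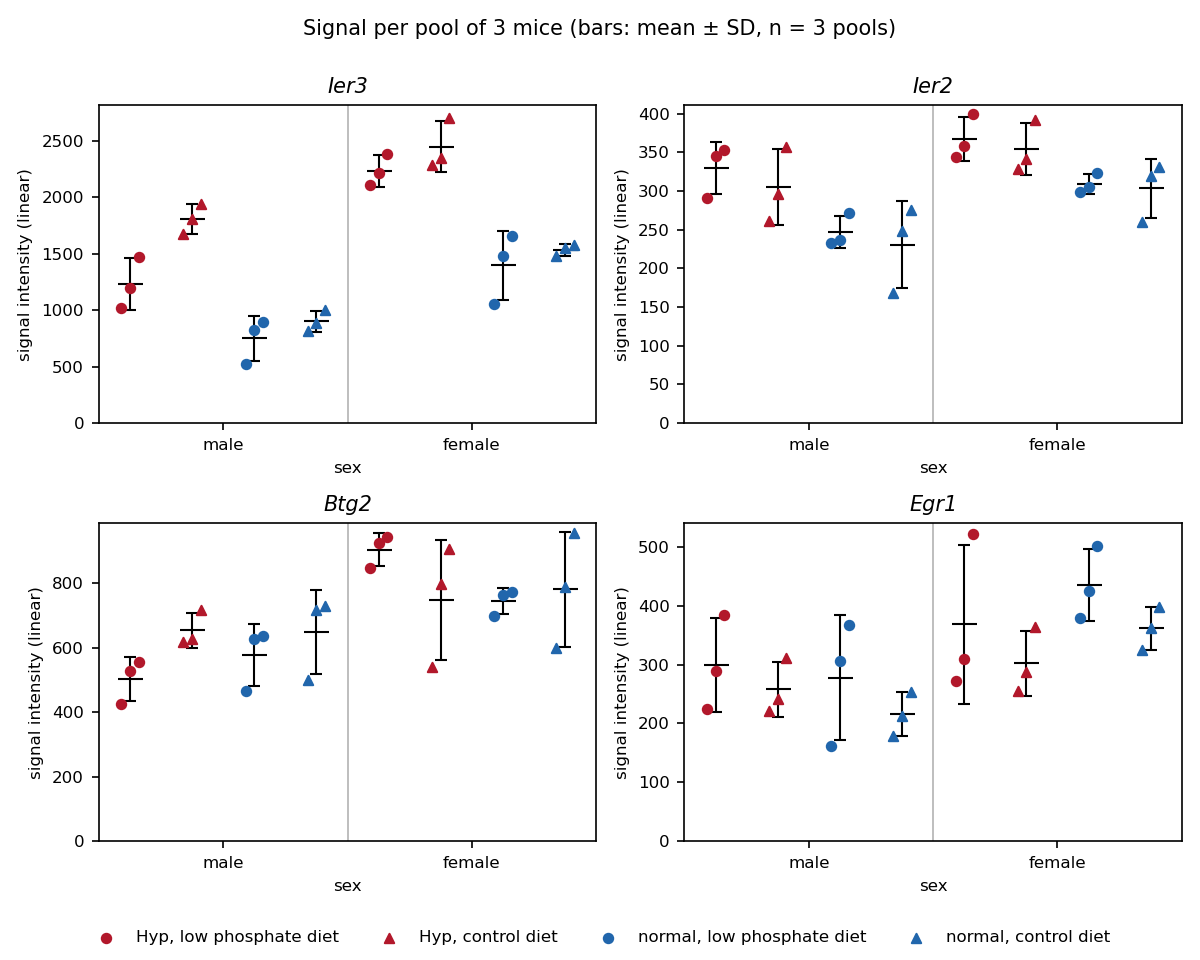
Signal intensity (linear) of Ier3, Ier2, Btg2 and Egr1 in each of 24 pools, males left and females right, Hyp pools in red and normal pools in blue, circles for low phosphate and triangles for control diet; bars are the mean ± SD of 3 pools. Ier3 in Hyp pools lies above Ier3 in normal pools within each sex, and all 4 genes average lower in male than in female pools.

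Genes of the pathways around these members were read from lists chosen with earlier results known. Of 40 other immediate early genes, 28 passed the filter, and for genotype 0 rose and 0 fell (limma, median -0.05). Over all features 1.96% were called for genotype, so 0 of 28 lies near that share. The smallest adjusted p-values were those of Ccn1 (-0.42 ± 0.12, adjusted p = 0.077) and Errfi1, a feedback inhibitor of the EGF receptor (0.30 ± 0.09, 0.0804), followed by Nr4a2 (-0.70 ± 0.24, 0.191) and Gadd45a (0.25 ± 0.09, 0.215). Fosb, Fosl1, Egr2 and Myc were among the 12 that did not pass the filter.

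ERK feedback genes are induced by ERK and dampen FGF and other receptor signals. Of 10 measured among 11, 4 rose and 0 fell in Hyp pools (median 0.49), against 1.05% of all features called higher. Dusp6, the ERK phosphatase, averaged 1173 ± 173 in Hyp pools and 669 ± 169 in normal pools (SD, n = 12 each), a log2 difference of 0.84 ± 0.09 (adjusted p = 3.66e-06). Dusp4 rose by 1.02 ± 0.20 (0.00855), the ETS factor Etv5 by 0.60 ± 0.12 (0.00867) and Spry2 by 0.49 ± 0.10 (0.00649). Of 18 measured kinases and factors upstream, 1 fell, the FGF23 co-receptor Kl (-0.69 ± 0.07, adjusted p = 6.32e-06), and 0 rose. Over all features 1.96% were called for genotype. Nras gave 0.23 ± 0.10 (0.379), Mapk8 -0.12 ± 0.06 (0.529) and Elk3 0.14 ± 0.09 (0.642).

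Stress lists gave no call for genotype: 0 of 12 heat shock genes, 0 of 6 measured p53 response genes and 0 of 5 measured mRNAs that Zfp36 or NF-kB control. Over all features 1.96% were called for genotype, so counts of 0 in lists this short lie near that share. Hspa1b gave 0.29 ± 0.12 (adjusted p = 0.315), Hmox1 0.56 ± 0.28 (0.495), Sesn2 0.39 ± 0.13 (0.164) and Nfkbia, the NF-kB inhibitor, 0.04 ± 0.08 (0.934). Of the 8 tubule markers 4 were called for genotype, as above. Slc12a3, the salt cotransporter that thiazides block, was higher (0.50 ± 0.05) and Slc5a2, the proximal glucose cotransporter, was lower (-0.64 ± 0.06) in Hyp pools, and their part in the results of the members was not tested. No marker of leukocytes, endothelium, podocytes, smooth muscle, red blood cells, adrenal or fat was called for genotype, against 1.96% of all features. The 1 measured red blood cell gene, Alas2, gave 0.57 ± 0.16 (0.0878), while the globin markers did not pass the filter. The 3′ to 5′ ratio of Actb, a sign of RNA quality, was 1.16 to 1.39 (median 1.31) in Hyp arrays and 1.26 to 1.51 (median 1.41) in normal arrays of the 430A chip, and its part in these results was not tested.

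The second comparison asked for an effect of 3 days on low phosphate. None of the 8 members that passed the filter was called by limma (0 of 8, 1 at an unadjusted p under 0.05), against 0.773% of all features. The median of the 8 was 0.03, against 0.01 over all features. Ier3 was the member with the unadjusted p: it ran from 523.7 to 2379 (median 1336) on low phosphate and from 814.8 to 2704 (median 1625) on the control diet, a difference of -0.29 ± 0.09 (adjusted p = 0.224).

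Junb gave 0.52 ± 0.25 (adjusted p = 0.536), Egr1 0.25 ± 0.14 (0.614), Jun 0.20 ± 0.11 (0.592), Fos 0.32 ± 0.28 (0.871) and Atf3 0.21 ± 0.38 (0.953). That Jun value, like the counts of members for diet, is from the probe set with the higher mean. Its other probe set gave 0.317 ± 0.115 and was not called (limma, unadjusted p = 0.0122, adjusted 0.342, every kept probe set tested). The Junb value depended on the pool at 32.8: it was 0.26 without that pool (replicate 3 of normal females on the control diet), and 0.26 to 0.69 without any 1 pool. The remaining members lay between -0.07 and 0.08. Zfp36 and Dusp1 were -0.03 ± 0.13 (0.982) and -0.06 ± 0.10 (0.938). Of the 28 other immediate early genes, 0 rose and 0 fell with diet by limma, with a median of 0.13.

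The third comparison set male against female kidneys. Ier3, Btg2, Egr1 and Ier2 were lower in males, 4 of the 8 members that passed, and 0 were higher, with 5 at an unadjusted p under 0.05. Among all features 9.78% were called lower in males. The median of the 8 was -0.28, against -0.05 over all features, and 7 of 8 were below 0, as were 59.6% of all features. Of all sex calls 38.3% were higher in males, and 63.6% when arrays were scaled to a common median or 45.1% after quantile normalization. Scaling to a common median shifted the median of all features for sex to 0.02, and quantile normalization to -0.02.

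Ier3 ran from 523.7 to 1941 (median 1012) in male pools and from 1059 to 2704 (median 1879) in female pools, which overlapped, and its difference was -0.75 ± 0.09 (adjusted p = 3.66e-06). Within each genotype the sexes did not overlap: Hyp males reached 1941 and the lowest Hyp female pool had 2104, and normal males reached 999.8 and the lowest normal female pool had 1059. The difference was -0.65 ± 0.13 in Hyp (adjusted p = 0.00212) and -0.84 ± 0.13 in normal pools (1.11e-04). The interaction of genotype with sex was 0.19 ± 0.18 for Ier3 (adjusted p = 0.914, 95% interval -0.19 to 0.57).

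Btg2 ran from 425.5 to 730.4 (median 623) in male pools and from 540.4 to 956.3 (median 792) in female pools, a difference of -0.42 ± 0.10 (adjusted p = 0.0047). Its second probe set gave -0.40 ± 0.07 (4.07e-04, every kept probe set tested). Both probe sets overlapped between the sexes and were lower in males.

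Egr1 ran from 161 to 384 (median 248) in male pools and from 255 to 523 (median 363) in female pools, a difference of -0.49 ± 0.14 (adjusted p = 0.0157). It was -0.74 ± 0.19 in normal pools (0.0168) and -0.25 ± 0.19 in Hyp pools (0.544), and the interaction was 0.49 ± 0.27 (0.832), so no difference between the genotypes was shown. Ier2 ran from 168 to 357 (median 274) in male pools and from 260 to 399 (median 330) in female pools, a difference of -0.28 ± 0.08 (0.0177). When arrays were scaled to a common median, Ier3 and Btg2 were still called and Egr1 (-0.40, adjusted p = 0.0546) and Ier2 (-0.18, 0.109) were not. Ier2 was also not called after quantile normalization (-0.21, 0.0643).

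Within genotypes 3 of 8 members were called lower in normal males (Ier3, Egr1 and Ier2), against 6.04% of all features, and 2 of 8 in Hyp males (Ier3 and Btg2), against 3.36%. The array median of the 430A chip moved with sex, from 165 to 194 (median 179) in males and from 168 to 211 (median 196) in females. The Actb 3′ to 5′ ratio was 1.28 to 1.51 (median 1.39) in males and 1.16 to 1.47 (median 1.31) in females. The part of either in the sex results was not tested beyond the scalings above.

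The other members did not pass for sex. Fos ran from 17.4 to 124 (median 74.2) in male pools and from 80.0 to 187 (median 114) in female pools, with a difference of -0.88 ± 0.28 (adjusted p = 0.0596). Jun gave -0.28 ± 0.11 (0.0908) on the probe set with the higher mean, and -0.45 ± 0.12 (0.0109, every kept probe set tested) on its other probe set, so the call for Jun depended on the probe set. Atf3 gave -0.49 ± 0.38 (0.525), Zfp36 -0.12 ± 0.13 (0.619), Dusp1 -0.03 ± 0.10 (0.908) and Junb 0.02 ± 0.25 (0.971).

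**Figure D2:**
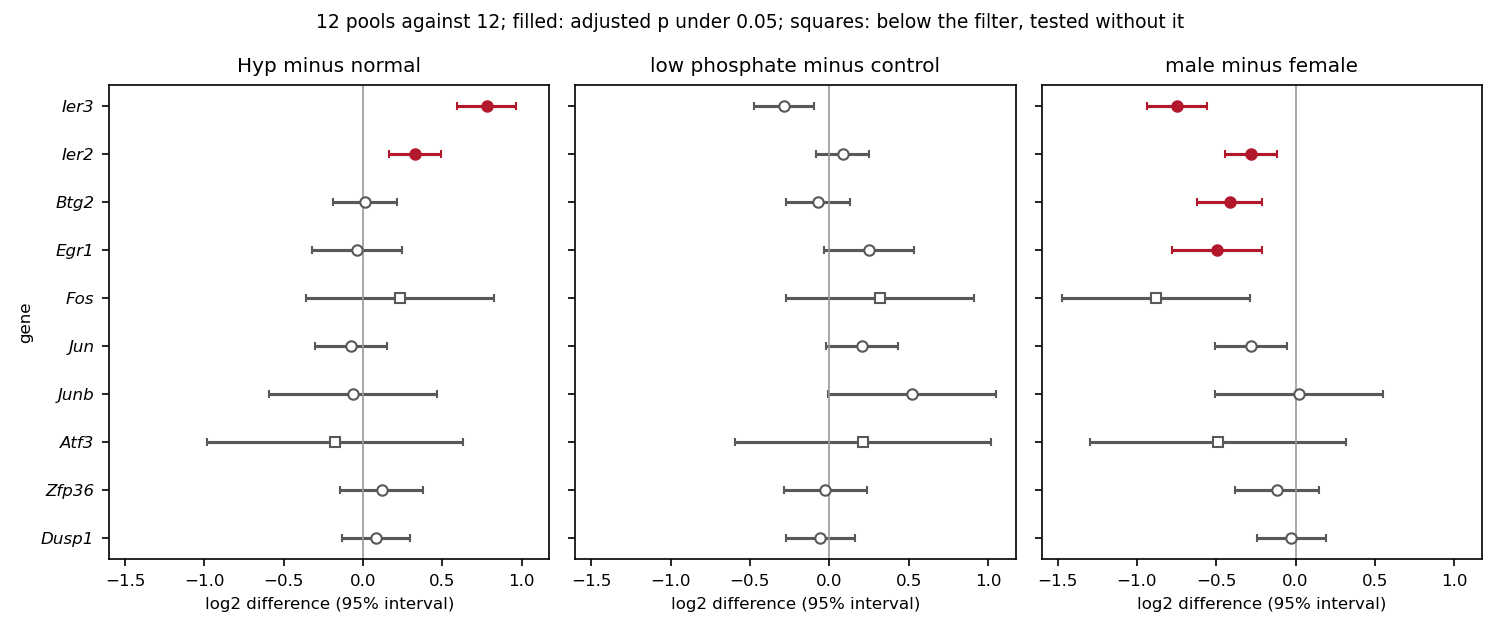
Log2 difference with its 95% interval for each gene (rows) for Hyp minus normal, low phosphate minus control and male minus female, 12 pools against 12; filled marks passed an adjusted p of 0.05, and squares are Fos and Atf3, tested without the filter. Filled marks are Ier3 and Ier2 for genotype, none for diet, and Ier3, Ier2, Btg2 and Egr1 for sex.

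Of the 28 other immediate early genes, 10 were lower and 2 were higher in males on the deposited scale (median -0.17, against -0.05 over all features). Among all features 9.78% were called lower in males, and 15.8% were called for sex in either direction. The genes named next fall outside the naming rule and were picked with their values in view. Cebpd, a C/EBP factor, averaged 145 in male pools and 528 in female pools (-1.88 ± 0.12, adjusted p = 1.16e-10). Sgk1, the kinase that activates epithelial sodium transport, averaged 1388 in male pools and 2948 in female pools (-1.07 ± 0.14, 7.85e-06). Gadd45g (-0.84 ± 0.18, 0.00207), Per1 (-0.59 ± 0.10, 2.47e-04), Ccn2 (-0.49 ± 0.09, 4.40e-04) and Nr4a1 (-0.45 ± 0.12, 0.0152) were also lower. Cebpb (0.41 ± 0.09, 0.00291) and Gadd45a (0.38 ± 0.09, 0.00413) were higher in males. Nfkbia, the NF-kB inhibitor, was lower in males (-0.45 ± 0.08, 2.44e-04), and heat shock genes had 3 calls in each direction.

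Markers of other cell types moved with sex as well. Lower in males were 3 of 7 measured leukocyte, 3 of 7 endothelial, 3 of 3 podocyte, 2 of 2 smooth muscle and 2 of 2 fat markers, with 0 higher, against 9.78% of all features called lower. These marker counts are on the deposited scale and were not repeated under median scaling. That scaling moved the share of all sex calls that were higher in males from 38.3% to 63.6%. Of the 8 tubule markers 2 were lower and 1 was higher in males, and 0 of 3 adrenal and 0 of 1 red blood cell markers were called by limma, with Alas2 (-0.44 log2) under an unadjusted p of 0.05. The summed leukocyte signal was 5382 to 7034 (median 6355) in males and 6375 to 7641 (median 7015) in females. The summed endothelial signal was 3563 to 4736 (median 4159) in males and 4539 to 5354 (median 5055) in females. Podocyte sums were 1369 to 1808 in males and 1417 to 2123 in females. Smooth muscle sums were 1479 to 1906 in males and 1904 to 2728 in females, and fat sums were 1172 to 2091 in males and 1700 to 2649 in females. The markers Wt1, Myh11, Ren1, Cfd and Plin1 did not pass the filter. The part of these cells in the sex differences of the members was not tested.

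The interactions of 2 factors called 0 of 8 members each by limma: genotype by diet with 0.0161% of all features called, genotype by sex with 0.0805% and diet by sex with 0%. At an unadjusted p under 0.05 there were 0, 0 and 2 members. The 2 were Jun (-0.59, adjusted p = 0.898) and Btg2 (-0.41, 0.903) for diet by sex. Their other probe sets gave smaller values for diet by sex, -0.30 ± 0.23 for Jun (0.924) and -0.14 ± 0.14 for Btg2 (0.941, every kept probe set tested). For genotype by diet the other Btg2 probe set gave -0.34 ± 0.14 (limma, unadjusted p = 0.0259, adjusted 0.854). Atf3, which is dim, gave 1.82 ± 0.77 for genotype by diet when limma tested every probe set without the filter (unadjusted p = 0.029, adjusted 0.93). For genotype by diet by sex the Jun probe set with the higher mean gave -0.19 ± 0.44 (limma adjusted p = 0.999). The other Jun probe set gave -1.24 ± 0.46 (limma, unadjusted p = 0.0138, adjusted 0.999, every kept probe set tested). On the Jun probe set with the higher mean, low phosphate pools averaged 333 ± 45.4 in Hyp males and 468 ± 27.2 in Hyp females, against 403 ± 143 in Hyp males and 351 ± 102 in Hyp females on the control diet, and in normal mice 357 ± 67.0 in males and 556 ± 57.6 in females on low phosphate, against 344 ± 55.8 in males and 381 ± 6.42 in females on the control diet (SD, n = 3 each). On the other Jun probe set normal mice averaged 393 ± 76.8 in males and 506 ± 134 in females on low phosphate, against 259 ± 40.8 in males and 421 ± 124 in females on the control diet, so the pattern of males differed between the probe sets.

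**Figure D3:**
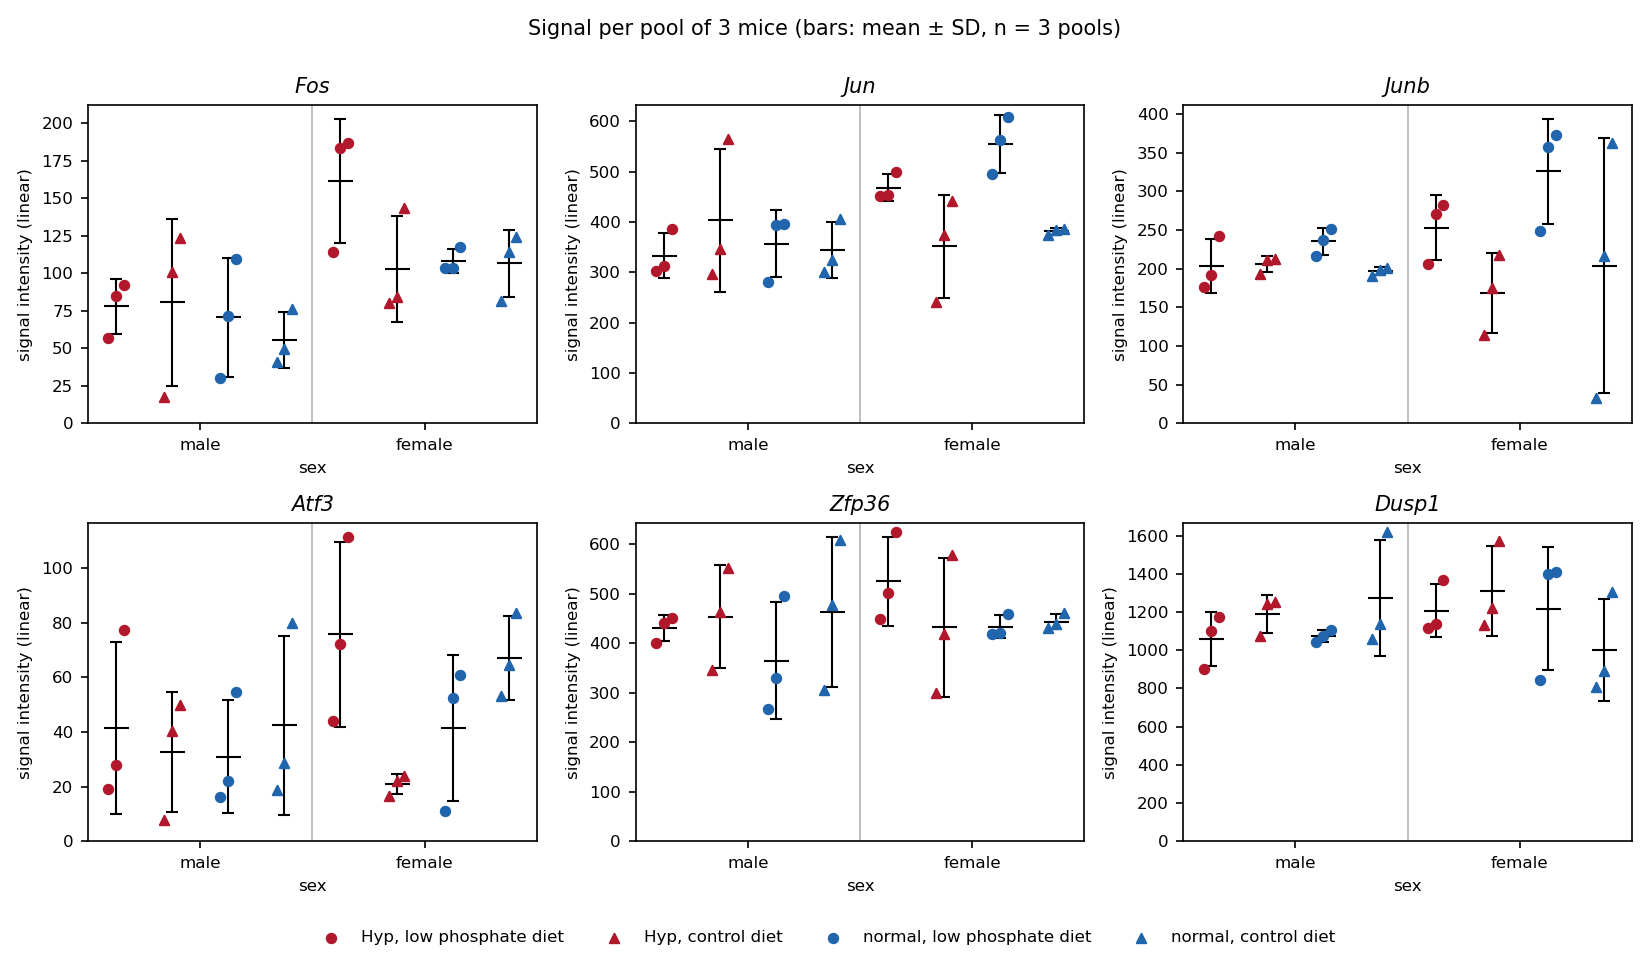
Signal intensity (linear) of Fos, Jun, Junb, Atf3, Zfp36 and Dusp1 in each of 24 pools, males left and females right, Hyp in red and normal in blue, circles for low phosphate and triangles for control diet; bars are the mean ± SD of 3 pools. The pools of Hyp and normal mice overlap for all 6 genes, and 1 normal female pool on the control diet stands low for Junb at 32.8.

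The last question was whether the genes move together from pool to pool. Each gene was read from the probe set of the main tests, or of the fit without the filter for Fos and Atf3. The other probe sets of Jun and Btg2 were not correlated, so the values below do not cover them. Each gene's log2 value was taken minus the mean of its group of 3, so that group effects drop out, and the 45 pairs of genes were correlated over 24 pools with 100000 permutations within groups (two-sided). Of the 45 pairs, 33 had a positive r, with a median of 0.16. When arrays were scaled to a common median, 23 were positive and the median was 0.014. None passed after adjustment over the 45 pairs, and 4 had an unadjusted permutation p under 0.05.

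Jun and Btg2 had the highest value, r = 0.65 (rho = 0.66, permutation p = 0.00277, adjusted p = 0.125, and r = 0.59 without the 2 farthest pools). Fos and Atf3, both dim, had r = 0.61 (rho = 0.60, permutation p = 0.0199, adjusted 0.298). Fos and Jun, which form AP-1 together, had r = 0.59 (adjusted permutation p = 0.579). Jun with Ier2 had 0.56 (0.298) and Ier2 with Btg2 0.57 (0.304). These values are on the deposited scale. When arrays were scaled to a common median, Fos with Atf3 was the highest pair (0.59), and Jun with Btg2 had 0.53. Ier2 with Btg2 then had 0.495, Fos with Jun 0.48 and Jun with Ier2 0.34. Ier3 had a median r of 0.03 with the other members, and its value with Ier2 was -0.08, although both rose in Hyp pools. Dusp1 had a median of -0.09, with Atf3 the lowest at -0.39.

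Many array features rise and fall together, so these values stand beside those over all features. Jun had a median r of 0.32 with the other members and 0.14 with all features, Btg2 0.28 and 0.04, Fos 0.25 and 0.13, Ier2 0.25 and 0.06, and Ier3 0.03 and 0.10. The array median, which is a property of the array, correlated with the deviations of Jun at r = 0.72 (rho 0.70, permutation p = 0.00791, adjusted p = 0.204 over 30 relations, r = 0.68 without the 2 farthest pools) and of Fos at 0.59 (rho 0.49, permutation p = 0.0136, adjusted 0.204, r = 0.61 without the 2 farthest pools). Ier2 had 0.43 with the array median (permutation p = 0.0393, adjusted 0.248). The remaining members ran from 0.08 (Egr1) to 0.51 (Zfp36) with it, except Dusp1 at -0.24. Dusp1 had 0.53 with the 3′ to 5′ ratio of Gapdh (permutation p = 0.0351, adjusted 0.248). None of the 30 relations with array median or RNA quality ratios passed.

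**Figure D4:**
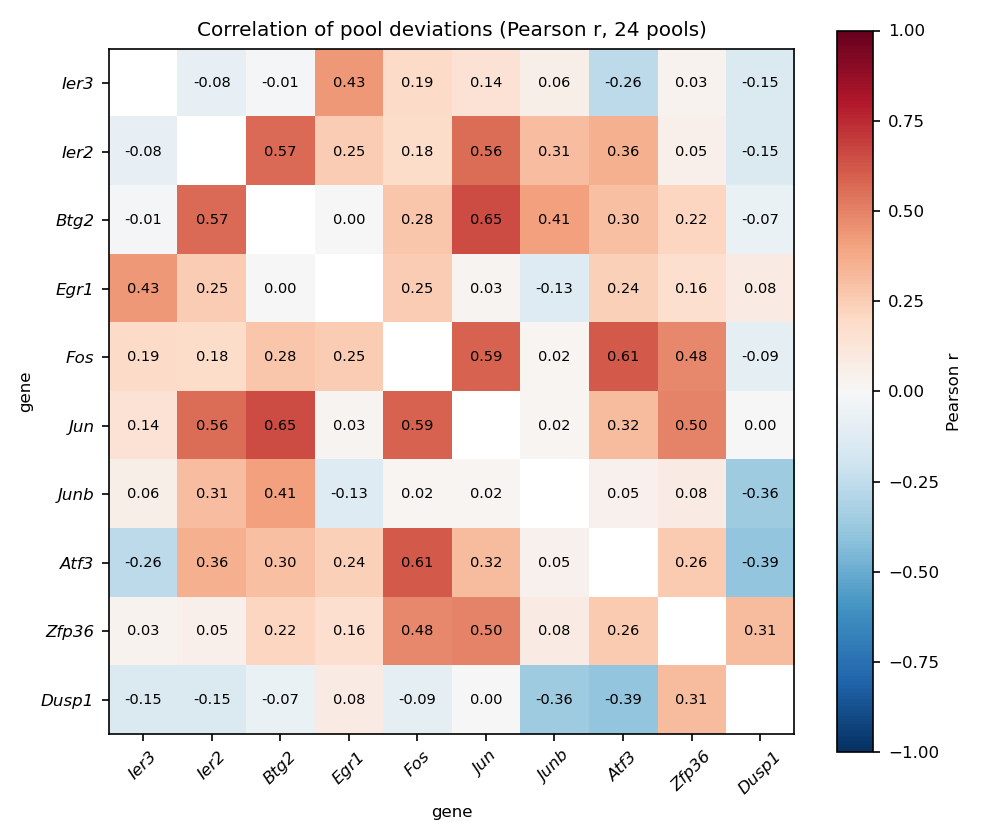
Pearson r of pool deviations from the group mean for each pair of the 10 genes over 24 pools, red positive and blue negative. On the deposited scale shown, the highest value is Jun with Btg2 (0.65) and the lowest is Dusp1 with Atf3 (-0.39).

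Single pools show the same mixture. The mean deviation of the 8 filtered members was highest in replicate 2 of Hyp females on control diet (0.21, 8 of all 10 members above their group mean), replicate 2 of normal females on control diet (0.21, 8 of 10) and replicate 1 of normal males on low phosphate (0.19, 9 of 10). It was lowest in replicate 3 of normal females on control diet (-0.26, 4 of 10) and replicate 3 of normal males on low phosphate (-0.23, 2 of 10). In replicate 1 of Hyp females on low phosphate 0 of 10 members lay above their group mean, with a mean of -0.15. Junb weighed most in the normal female pools, with -2.06 in replicate 3 and 1.40 in replicate 2.

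**Figure D5:**
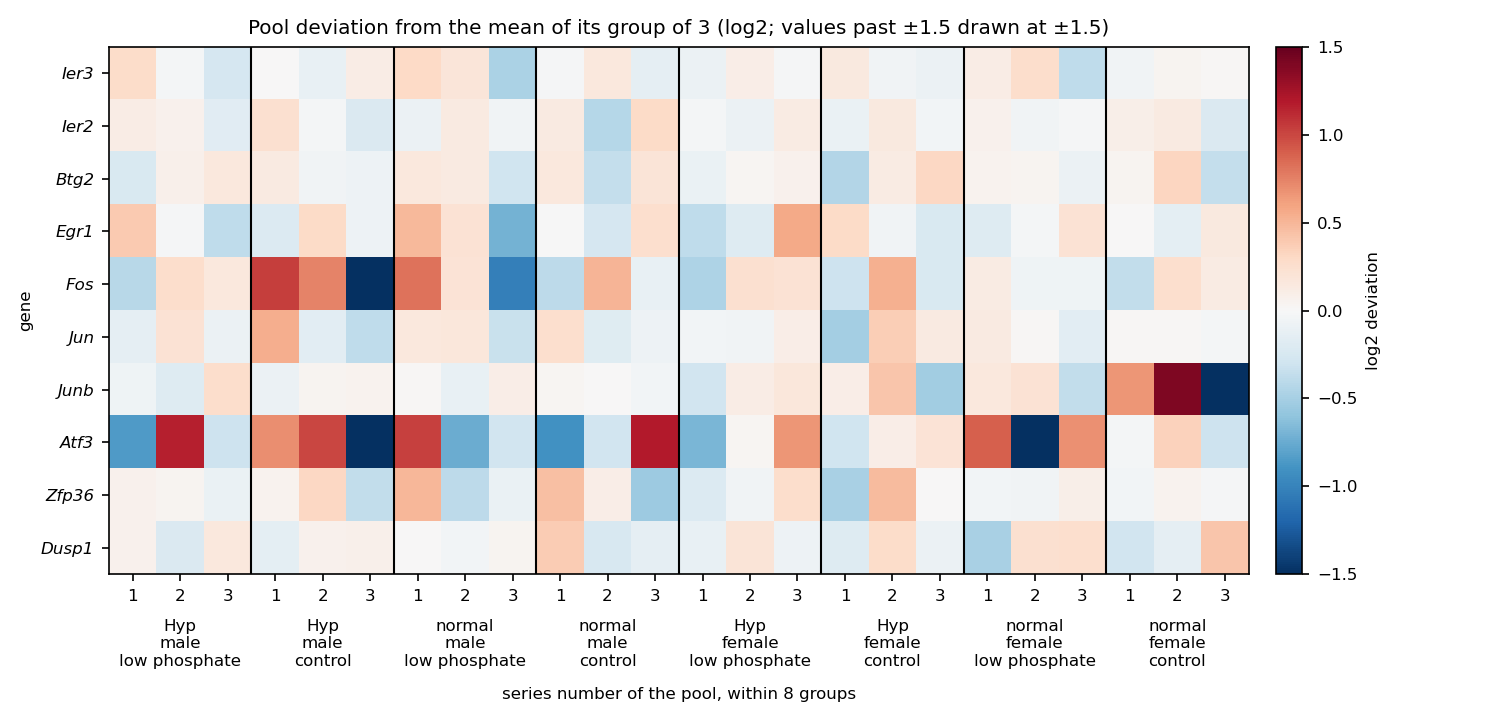
Log2 deviation of each of 10 genes (rows) in each of 24 pools (columns, by series number within the 8 groups) from the mean of its group of 3; 4 of 240 deviations past 1.5 in size are drawn at 1.5. No series number is red or blue across all groups and genes, and Fos, Atf3 and Junb show the strongest colours. Averaged over the 8 groups, Fos lay at 0.34 in series 2 and -0.34 in series 3, and Junb at 0.24 and -0.30. Dusp1 lay at 0.02 and 0.08.

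By the naming rule, the 10 genes outside the list whose pool deviations were most like the members' mean deviation, out of 12820 named genes over 24 pools, were Wrap53 (r = 0.84), Pik3r6 (0.83), Maco1 (0.83), BC048679 (0.82), Mcm3ap (0.81), Gm11691 (0.80), Pdk1 (0.80), Scn2b (0.79), Rbm6 (0.79) and C330022C24Rik (0.79). None belongs to the other immediate early genes, whose 28 measured members had a median r of 0.11 and a highest of 0.66, against 0.14 and a 95th percentile of 0.55 over all features. These are descriptions of 24 pools that share array scaling. The 10 measured ERK feedback genes had a median r of -0.15 with the members' mean deviation, and the highest was 0.49.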

How the data were processed

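RNA of 24 kidney pools was measured on 430A and 430B arrays. The authors deposited 1 linear signal intensity for each probe set and array. GCOS 1.2 is the software named, per the submitters' processing notes. Its algorithm and scaling target are not given in the labels, and no detection calls were used. On every array the mean of the 100 shared probe sets, with 2% trimmed at each end, was 1200. Of 45137 probe sets, 35041 had 1 symbol, 936 several and 9160 none. Signals were floored at 1 and taken to log2. Probe sets needed at least 3 of 24 arrays above the array median, and each gene was read from its brightest kept probe set, 430A before 430B (18633 features). One model of 8 group means was fitted per chip with limma 3.58.1 in R 4.3.3, without a block, and p-values were adjusted over both chips at 0.05. In data simulated for genotype on 8789 features, 83% of changes of log2 0.5 and 99% of log2 1 were called. Pool correlations used numpy 2.4.6. Nothing says that the pools of a group were prepared apart, so p-values measure the spread between these pools. The members, the gene lists and the tests were chosen with earlier results of these data known. The text names all members, up to 4 genes per list by adjusted p for genotype, and the 10 genes most like the members' mean deviation. Alternatives were other scalings, log2 of intensity plus 50, no filter, other uses of probe sets, adjustment per chip, a replicate block and leaving out each pool. The number of arrays limits the precision.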

Additional observations from a re-analysis of the deposited data

How the results depend on the processing

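Ier3 kept its direction and its call for genotype (0.75 to 0.80 over 8 settings, 0.72 to 0.82 without any 1 pool) and for sex (-0.77 to -0.65, and -0.80 to -0.69 without any 1 pool). For genotype the count of members called was 1 without the filter on dim probe sets, where more probe sets were tested, and 1 to 2 without any 1 pool. For sex it was 2 after scaling to a common median and 4 to 5 without any 1 pool. The genotype count within males was 1 to 2, with 2 called without replicate 3 of normal males on the control diet. Counts for diet and for the 3 interactions of 2 factors were 0 in every setting and without any 1 pool.

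For sex, Dusp1 turned to 0.069 under median scaling and Junb to -0.036 with 50 added to the intensity; neither was called in any setting. Without any 1 pool, values not past the threshold crossed 0 for genotype in Egr1 (-0.13 to 0.024), Junb (-0.32 to 0.11), Atf3 (-0.37 to 0.035) and Btg2 (-0.033 to 0.066), for diet in Zfp36 (-0.094 to 0.034) and Dusp1 (-0.092 to 0.0046), and for sex in Junb (-0.23 to 0.20) and Dusp1 (-0.088 to 0.025). Fos was called lower in males with 50 added (-0.51, adjusted p = 0.0242), with adjustment within each chip (0.0377), and without any 1 of 4 pools (replicate 1 of normal males on low phosphate and each replicate of Hyp males on the control diet). Jun was called lower in males on the mean of its probe sets (-0.36, 0.00658) and without replicate 1 of Hyp males or of Hyp females on the control diet. With no group mean removed, 4 of the 45 pairs passed (Ier2 with Ier3, Jun with Btg2, Fos with Atf3, Fos with Jun); these values include the group effects. The cause of the other changes was not tested.

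The titles number the pools of a group 1 to 3 as series, and nothing says that a number marks a shared day or litter. Of 84 pairs of pools with the same number in different groups, 0 had deviations that correlated over 0.1 (-0.05 to 0.09). Still, 22 of 24 pools correlated best with their own number. The main fit did not treat the pools as paired, and these values do not settle whether they should be. With the replicate block the member counts stayed at 2 for genotype, 0 for diet, 4 for sex and 0 of 45 pairs, and Fos was called for sex (limma adjusted p = 0.0448). Over all features the block raised the calls from 365 to 438 for genotype and from 2953 to 3250 for sex. Within series 1, 2 and 3 the genotype difference of Ier3 was 0.78, 0.59 and 0.96. Dim probe sets limit what can be said of Fos and Atf3.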
